A study of Rattus norvegicus with 12 samples.

Results

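The miRNAs without a single read in the rat hippocampus are described here. A miRNA was counted among them when its deposited expected count rounded to 0 in each of the 12 libraries, and 152 of the 753 listed mature miRNAs (20.2%) met that rule. The counts of these 152 miRNAs chose them, so their zeros are a description and carry no test. For 149 of the 152 the deposited value was exactly 0 in every library. The other 3 carried fractions of a read, namely miR-466c-3p with a summed value of 0.333, miR-664-1-5p with 0.0354 and miR-20b-5p with 1.6e-14. Outside the rule, 181 miRNAs had few reads and 420 were retained by the study's filter, which drops any miRNA that stays under 10 reads in at least 10 of the libraries.

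The study asked whether acute ethanol changed miRNA levels in the hippocampus. Adult male Sprague Dawley rats aged P70 to 80 were injected i.p. with vehicle (4 rats, numbered 9, 10, 19 and 20) or with 4 g/kg ethanol (8 rats, numbered 3, 4, 7, 8, 15, 16, 23 and 24), and tissue was taken 3 h later. Each library came from the hippocampus of 1 rat, which the labels call the right hippocampus and the study's methods the dorsal hippocampus. The labels name no allele and no further agent for either group. The neuronal markers miR-124-3p, miR-9a-5p, miR-128-3p, miR-138-5p and miR-137-3p were read in all 12 libraries and together made up 29169 to 40285 counts per 1000000 reads (CPM). Markers of choroid plexus (miR-204-5p, miR-211-5p and miR-448-3p) summed to 17211 to 67271 CPM, those of oligodendrocytes to 8689 to 17044 CPM and those of blood cells to 571 to 1024 CPM, so tissue or cells beside the neurons were present in every library and their part in the results below was not tested. Most of the blood sum came from miR-150-5p, at 478 to 691 CPM. By comparison miR-451-5p stood at 33.3 to 214 CPM and miR-144-3p at 20.9 to 88.4 CPM. Lower still were miR-142-3p at 14.2 to 21.7 CPM and miR-223-3p at 2.65 to 13.1 CPM. In bulk tissue, fewer cells of a type and less RNA per cell cannot be told apart.

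A miRNA is cut from a hairpin precursor in 2 steps, and the hairpin gives a duplex whose strands are named 5p and 3p by the arm they come from. One strand, the guide, is usually kept in an Argonaute protein, and the other, the passenger, is usually degraded. The seed, bases 2 to 8 from the 5′ end, does most of the pairing with target mRNAs. Many miRNA genes lie in clusters that are transcribed together, and some clusters are known for activity in 1 tissue only, such as testis, embryonic stem cells or heart.

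Of the 152 miRNAs, 138 had a mature sequence in RefSeq (assembly GRCr8), as did 688 of the 753 listed. The sequences below were chosen to show the main groups, with the seed in capitals and the rest in lower case, 5′ to 3′. The first set holds silent miRNAs of under 20 bases, with miR-181a-1-3p and miR-129-2-3p as the read counterparts from a second copy of the gene and miR-9b-5p as the one short miRNA with a read.
miR-181a-2-3p: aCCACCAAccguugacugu
miR-181a-1-3p: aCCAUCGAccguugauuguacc
miR-129-1-3p: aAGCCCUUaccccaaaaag
miR-129-2-3p: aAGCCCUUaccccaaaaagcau
miR-100-3p: cAAGCUUGugucuauaggu
miR-103-2-5p: aGCUUCUUuacagugcu
miR-381-3p: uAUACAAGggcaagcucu
miR-9b-5p: uUCGGUUAucuagcuuuau

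The second set pairs silent miRNAs with the read miRNA encoded on the facing strand of the same locus. Each of miR-3596a, miR-3592 and miR-3574 was the exact reverse complement of its partner, and miR-3543 was complementary to miR-434-3p over 22 bases.
miR-3596a: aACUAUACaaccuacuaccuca
let-7a-5p: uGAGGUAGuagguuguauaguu
miR-3592: aAGUGUUGuccgugaaugauu
miR-382-3p: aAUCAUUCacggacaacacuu
miR-3574: uCAGCCGCugucacacgcacag
miR-210-3p: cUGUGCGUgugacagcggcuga
miR-3543: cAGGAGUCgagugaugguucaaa
miR-434-3p: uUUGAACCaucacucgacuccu

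The third set shows the silent miRNAs of 20 bases or more whose sequence lay nearest to a read miRNA, 2 silent arms of well read hairpins, and the seeds that silent miRNAs shared with each other.
miR-664-1-5p: cUGGCUGGggaaaaagauugg
miR-664-2-5p: cUGGCUGGggaaaaugauugg
miR-20b-5p: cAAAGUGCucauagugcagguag
miR-17-5p: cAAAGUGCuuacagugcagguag
miR-129-5p: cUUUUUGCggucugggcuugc
miR-211-3p: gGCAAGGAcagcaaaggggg
miR-743a-5p: uAUUCAGAuuggugccugucau
miR-871-5p: uAUUCAGAuuggugccggucacau
miR-208a-3p: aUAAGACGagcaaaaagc
miR-208b-3p: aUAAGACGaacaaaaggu
miR-290: uCUCAAACuaugggggca
miR-292-5p: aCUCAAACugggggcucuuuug

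The 12 libraries together held 36645235 reads, between 1960704 and 4917928 a library. A count of 0 was taken to allow up to 3 counts. Over the whole pool this put the upper limit for each of the 152 miRNAs at 0.0819 CPM. The 3 counts are a chosen limit and not a ceiling, and a single miRNA may lie above it. This limit covers counting error only, since reads without molecular identifiers are not independent molecules. In a single library the limit was far looser, from 0.610 CPM in vehicle rat 19 to 1.53 CPM in ethanol rat 7. Over the 4 vehicle libraries alone 180 miRNAs were at 0, with a limit of 0.205 CPM, and over the 8 ethanol libraries alone 161 were at 0, with a limit of 0.136 CPM. Of the miRNAs outside the set, 28 were at 0 in all vehicle libraries and read in at least 1 ethanol library, and 9 showed the reverse. The ethanol pool was the larger, at 21999375 against 14645860 reads.

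Each library had between 219 and 252 listed miRNAs at 0. Outside the 152, the number at 0 was 84, 90, 70 and 67 in vehicle rats 9, 10, 19 and 20, and ran from 67 to 100 in the ethanol rats. The groups overlapped, with means of 77.75 ± 11.03 (SD, n = 4) for vehicle and 80.75 ± 11.51 (SD, n = 8) for ethanol, a difference of 3.0 (two-sided exact permutation test, p = 0.675). The number at 0 fell as the library's depth on a log2 scale rose, with Pearson r = -0.77 (permutation p = 0.0039) and Spearman rho = -0.74 (permutation p = 0.0074) over the 12 rats, the only relation of this kind computed. Without the libraries farthest from the median depth, vehicle rats 19 and 20, r was -0.71. The labels name no sequencing set for a library, so no within-batch value could be given.

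**Figure D1:**
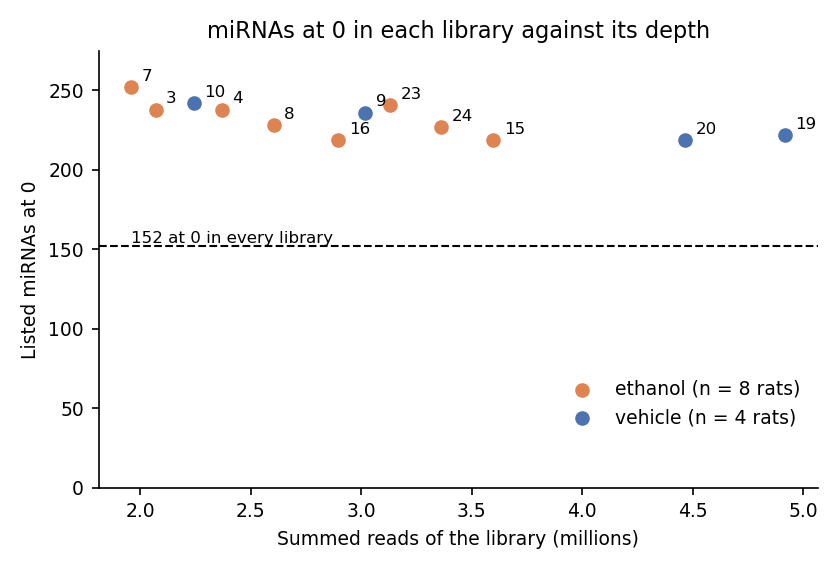
Number of listed miRNAs at 0 in each library (vertical axis) against the summed reads of the library (horizontal axis), 1 point a rat with its number. All libraries lie between 219 and 252, well above the dashed line at 152, the miRNAs at 0 in every library.

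Just outside the rule, 17 miRNAs had 1 read in all 12 libraries together, 13 had 2 and 14 had 3. Of the 21 miRNAs with reads in 1 library only, the largest totals were miR-881-3p with 7, miR-471-5p with 3 and miR-6330 with 2, all from ethanol rat 16, followed by miR-219b with 2 from vehicle rat 20, while the other 17, among them miR-183-3p from vehicle rat 9, had a single read each. If each read were kept with a chance of 50%, the number of unread miRNAs expected from the observed totals would be 166, and at 10% it would be 216.

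The silent miRNAs differed from the others in the length of the mature sequence. Of the 42 listed miRNAs annotated in RefSeq at under 20 bases, 41 had no read (97.6%), against 97 of the 646 annotated at 20 bases or more (15.0%). The sole exception was miR-9b-5p, with 1 read in ethanol rat 4. At 17 bases 7 of 7 were silent, at 18 bases 16 of 16 and at 19 bases 18 of 19, whereas at 20 bases the count was 12 of 38 (31.6%), at 22 bases 46 of 315 and at 25 bases 0 of 4. GC content was alike, with a median of 47.5% in the silent miRNAs and 47.8% in all listed ones. The study's libraries were cut from a gel at 20 to 30 nt. The part that this size window played in the result was not tested. The lengths are those of the GRCr8 annotation, and the annotation that the authors counted against may differ.

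**Figure D2:**
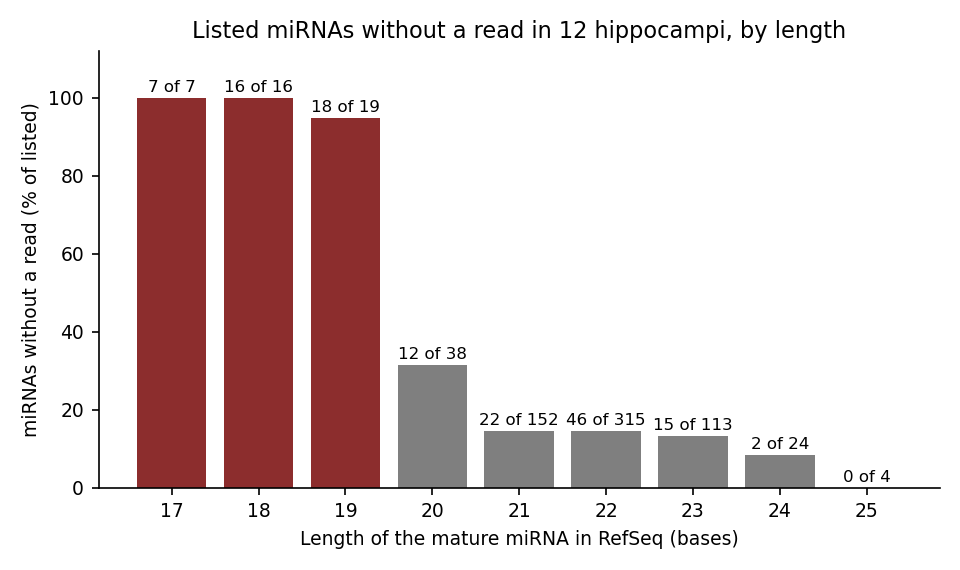
Share of listed miRNAs without a read (vertical axis, percent) by the length of the mature sequence in RefSeq (horizontal axis, bases), with the number silent of the number listed above each bar and lengths under 20 bases in dark red. The share was 18 of 19 at 19 bases and 12 of 38 at 20 bases.

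Among the 41 short miRNAs were arms whose partner on the same hairpin ranked with the most abundant miRNAs of the tissue. The 19-base miR-181a-2-3p, at chr3:43025646-43025664 on the plus strand, had no read, while miR-181a-5p, a miRNA known for its role in lymphocyte and neuronal signalling, had 4978184. Other short silent arms of well read hairpins were miR-100-3p (19 bases), miR-103-2-5p (17 bases), miR-149-3p (18 bases), miR-185-3p (19 bases), miR-344a-5p (19 bases) and miR-187-5p (18 bases), with 207445, 58521, 12303, 5553, 2755 and 2463 reads on the opposite arm. In miR-381, of the imprinted Dlk1-Dio3 locus, the 18-base 3p arm at chr6:134562422-134562439 was at 0 and the 5p arm had 23 reads. Both arms were short and silent in miR-193b and miR-3584.

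Numbered copies of a miRNA gene were compared next, since 7 silent arms had a second copy on the list. The 19-base miR-129-1-3p was at 0, whereas miR-129-2-3p, whose first 19 of 22 bases are the same sequence, had 16221 reads and between 891 and 2027 in every library. In the same way the 17-base miR-299b-3p was contained in bases 1 to 17 of miR-299a-3p, which had 505 reads. No other silent miRNA lay whole within a read one. In both pairs a read of the short miRNA could also have been counted as the longer one. The zeros of miR-129-1-3p and miR-299b-3p are therefore uncertain, and these pairs cannot separate length from the counting. The 22-base miR-181a-1-3p, with 12021 reads, stood 6 edits from the silent 19-base miR-181a-2-3p and had another seed. miR-103-1-5p had 42 reads in 10 libraries against none for the 17-base miR-103-2-5p.

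Copies of equal or near-equal length also differed. miR-128-2-5p and miR-128-1-5p, both of 21 bases and 5 edits apart, had 0 and 2189 reads. miR-664-1-5p and miR-664-2-5p, both of 21 bases, differed by the substitution A15U, counted from the 5′ end with the base of miR-664-1-5p first, and had 0 and 1389 reads. miR-664-1-5p was one of the 3 with a fraction of a read, at most 0.0317 in ethanol rat 16. miR-20b-5p differed from miR-17-5p, a member of the oncogenic miR-17-92 family with 3093 reads, by C10U and U12C and carried only the trace value given above. For these pairs the authors' counting could have split or moved reads between near-identical miRNAs, so their zeros are uncertain. The remaining copies were miR-92a-2-5p against miR-92a-1-5p with 98 reads and miR-19b-2-5p against miR-19b-1-5p with 2.

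By edits over the full length, few silent miRNAs were close in sequence to a read one. Of the 138 with a sequence 2 (1.45%), miR-664-1-5p and miR-20b-5p, lay within 2 edits, as did 69 of the 688 listed miRNAs with a sequence (10.0%). Every base missing at an end counted as an edit. So miR-129-1-3p stood 3 edits from miR-129-2-3p and miR-299b-3p 4 from miR-299a-3p, though each lies whole within the other. As 41 of the 138 were under 20 bases, the 2 shares are not alike in length. The most abundant nearest neighbours stood 5 to 9 edits away. miR-204-5p stood 8 edits from miR-202-5p and from miR-185-3p, and miR-191a-5p stood 9 from miR-196c-3p. miR-16-5p stood 8 from miR-126b, miR-30c-5p 8 from miR-675-3p and miR-192-5p 7 from miR-3566. Likewise miR-24-3p stood 9 edits from miR-187-5p, miR-125b-5p 8 from miR-3541 and miR-30a-3p 9 from miR-129-5p. miR-300-3p, with 91208 reads, stood 5 edits from miR-381-3p. As miR-381-3p has only 18 bases, missing end bases may be part of these 5 edits. Its zero is uncertain, since the authors' counting could have moved its reads to miR-300-3p. A seed shared with a read miRNA was found for 19 of the 138 (13.8%) and for 23.1% of all listed miRNAs with a sequence. The 138 carried 135 distinct seeds, and 117 of these seeds were carried by no read miRNA. Silent miRNAs shared a seed with each other in 3 pairs, miR-743a-5p with miR-871-5p, miR-208a-3p with miR-208b-3p, and miR-290 with miR-292-5p, and the last seed was also that of miR-293-5p with 11 reads.

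By arm, 52 of the 152 were named 5p, 49 were named 3p and 51 (33.6%) carried no arm in the name, against 17.4% without an arm among all listed miRNAs. An opposite arm was listed for 100 of the 152. It was read for 65 of them, 35 with a silent 5p and 30 with a silent 3p arm, and was silent as well for the other 35. Of all listed miRNAs with an opposite arm on the list, that arm was read for 527 of 621 (84.9%). In 36 cases the opposite arm was read in all 12 libraries. Over all 100 opposite arms, the 35 silent ones included, the median was 7.5 reads. Counted in the same way it was 502 for the opposite arms of all listed miRNAs. At least 10 reads were found for 48 of the 100. Of the 286 RefSeq hairpins with exactly a 5p and a 3p arm listed, 213 had reads on both arms, 55 on 1 arm and 18 on neither. The better read arm had a median of 94 reads where the other was silent and 7884 where both were read.

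Where the opposite arm was abundant, its reads were set against the zero of the silent arm. The folds below cover counting error only. Of the silent arms below, miR-181a-2-3p, miR-100-3p and miR-103-2-5p are under 20 bases, a class with 41 of 42 at 0. What the size window did to their zeros was not tested. For miR-328a-5p and miR-150-3p RefSeq gave no length, and the zero of miR-664-1-5p is uncertain, as said above. The folds hold against the 3 counts chosen as the limit for a 0. On that basis the arm opposite miR-181a-2-3p was at least 1659395-fold higher. Yet miR-181a-5p comes from 2 loci and its reads cannot be given to either. The opposite arm was at least 92930-fold higher for miR-211-3p, whose hairpin lies in an intron of the melastatin gene Trpm1, and 90516-fold for miR-128-2-5p of the neuronal miR-128. It was at least 69148-fold higher for miR-100-3p, 19507-fold for miR-103-2-5p, 15173-fold for miR-328a-5p, 9010-fold for miR-664-1-5p and 7263-fold for miR-92a-2-5p. For miR-150-3p, passenger of the lymphocyte miRNA miR-150, the bound was 6518-fold and for miR-129-5p 5407-fold. RefSeq likewise places miR-128-3p and miR-92a-3p at 2 loci each, and the list holds a 5p arm from a second copy of miR-103 and of miR-664, so the reads of these opposite arms cannot be given to 1 hairpin either. The same holds for miR-129-5p, itself at 2 loci. The first 19 bases of miR-129-2-3p are those of miR-129-1-3p.

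miR-129-5p, at chr3:100657448-100657468 on the minus strand and chr4:58589716-58589736 on the plus strand, belongs to a miRNA known from brain. It has 21 bases, yet it had no read in any library. The part of the authors' counting or annotation in this zero was not tested. The 3p arm named for the second gene copy, miR-129-2-3p, is given in CPM after TMM scaling (trimmed mean of M values). It stood at 528, 542, 426 and 378 CPM in vehicle rats 9, 10, 19 and 20. In the ethanol rats it lay between 376 and 645 CPM, with a median of 418. The groups overlapped.

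The 33 opposite arms that the filter retained were compared between ethanol and vehicle, since their counts did not choose the set. Across the 420 retained miRNAs edgeR's quasi-likelihood test called 0 (0%) at an adjusted p under 0.05, so none of the 33 was called. The lowest adjusted p was 0.971, both among the 33 and among the 420. At an unadjusted p under 0.05 there were 2 of the 33 and 17 of the 420, and DESeq2's Wald test called 1 of the 420. Of the 33 log2 fold changes 19 were below 0 and 14 above, with a median of -0.02, the same to this precision as the median over the 420.

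The 3 opposite arms with the smallest unadjusted p were miR-185-5p, miR-770-5p and miR-133b-3p. miR-185-5p, partner of the silent 19-base miR-185-3p, was at 180.6, 166.0, 151.0 and 156.0 TMM-scaled CPM in vehicle rats 9, 10, 19 and 20 and between 140.9 and 150.9 in the ethanol rats, with a median of 144.6. All 8 ethanol rats lay below all 4 vehicle rats, by a narrow margin, and it was the only 1 of the 420 (0.238%) whose groups did not overlap. Its log2 fold change was -0.17 ± 0.07 (SE, edgeR, adjusted p = 0.971) and -0.11 without vehicle rat 9.

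miR-770-5p, partner of the silent 17-base miR-770-3p in the Dlk1-Dio3 locus, was at 14.9, 19.2, 10.3 and 15.7 CPM in the vehicle rats in the same order and between 14.7 and 23.2 CPM in the ethanol rats, with a median of 20.6. The groups overlapped, and the log2 fold change was 0.39 ± 0.17 (SE, edgeR, adjusted p = 0.971) and 0.22 without vehicle rat 19. miR-133b-3p, a muscle miRNA whose 5p arm was silent, was at 691, 56.6, 605 and 664 CPM in the vehicle rats and between 46.7 and 732 CPM in the ethanol rats, with a median of 87.1. Vehicle rat 10 sat with the low ethanol rats and ethanol rat 16 with the high vehicle rats. Its log2 fold change was -1.63 ± 0.76 (SE, edgeR, adjusted p = 0.971) and became -2.62 without ethanol rat 16 (edgeR, adjusted p = 0.0254), the only leave-one-out fit in which it was called. DESeq2's Wald test on all 12 libraries also called it (-2.32, adjusted p = 0.0397). Reads of the whole muscle list, which holds miR-133b-3p itself, moved with it, at 5110, 302, 7735 and 8306 in the vehicle rats, 4883 in ethanol rat 16 and 309 to 720 in the other ethanol rats, and the part of these other muscle miRNAs in the result was not tested.

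The remaining abundant opposite arms showed overlapping groups as well. miR-181a-5p was at 137510, 111421, 150928 and 102318 CPM in the vehicle rats and ran from 114931 to 165256 CPM in the ethanol rats (log2 fold change 0.18 ± 0.12 SE). miR-211-5p, which is prominent in choroid plexus, ran from 5577 to 9114 CPM in vehicle and from 2582 to 13010 CPM in ethanol rats. For miR-128-3p, miR-103-3p, miR-328a-3p, miR-664-3p and miR-129-2-3p the log2 fold changes lay between -0.06 and -0.01, for miR-150-5p it was 0.10, for miR-92a-3p 0.30 and for miR-100-5p 0.31. Without vehicle rat 20 the value fell to 0.078 for miR-181a-5p, 0.16 for miR-100-5p and 0.052 for miR-150-5p, and without vehicle rat 9 it was 0.17 for miR-150-5p. None of these arms passed the test in the fit to all libraries (edgeR, lowest adjusted p = 0.971).

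**Figure D3:**
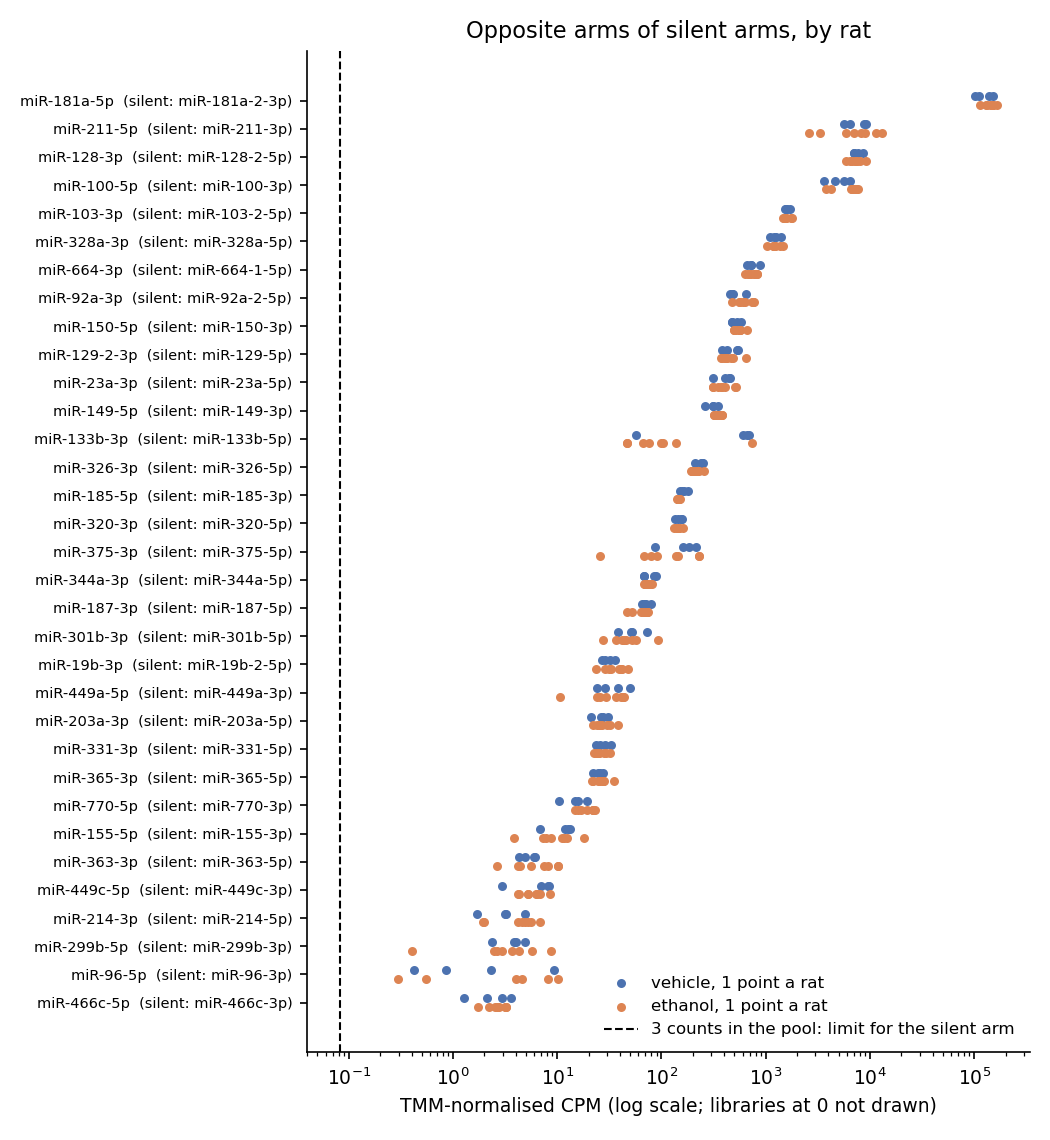
TMM-scaled CPM (horizontal axis, log scale) of the 33 retained miRNAs whose opposite arm had no read, 1 point a rat in blue for vehicle and orange for ethanol, with the silent arm named beside each. The dashed line is the pooled limit of 0.0819 CPM for a silent arm; vehicle and ethanol points overlap in every row but that of miR-185-5p.

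A second feature was position on the strand facing another miRNA. RefSeq placed 37 pairs of listed hairpins on opposite strands of the same locus. Of the 109 listed mature miRNAs in these hairpins 31 were silent (28.4%), against 107 of the 579 others with a sequence (18.5%). Among those of 20 bases or more the shares were 21 of 98 (21.4%) and 76 of 548 (13.9%). On the strand of each pair that had fewer reads, 26 of 42 mature miRNAs were silent, but that strand was picked by its reads and the share is a description only. For these 26 the most read miRNA of the facing hairpin had 32 to 1400386 reads. Of the 26, 25 were complementary to a facing mature miRNA over 16 bases or more. For 19 the complementary run took up the whole of the silent miRNA, and 5 were exact reverse complements.

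All 4 listed members of the miR-3596 family were silent and faced let-7 genes, whose products are known for restraining growth in differentiated cells. miR-3596a, at chr8:50805219-50805240 on the minus strand, faced let-7a-5p with 1400386 reads. miR-3596c faced let-7e-5p with 51934, miR-3596d faced let-7f-5p with 35441, and miR-3596b was complementary over 20 bases to let-7d-5p with 1923. Other silent miRNAs opposite abundant ones were miR-9b-3p (miR-9a-5p, 863490 reads), miR-3543 (miR-434-3p, 222851), miR-3556a (miR-29a-3p, 111840), miR-3590-5p (miR-130a-3p, 23855) and miR-133c (miR-133a-3p, 10177). Where the facing miRNA was itself scarce the silent one was at 0 too, as with miR-3571 opposite miR-1-3p (57 reads) and miR-3591 opposite the liver miRNA miR-122-5p (32 reads).

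Not every such miRNA was unread. On the strand with fewer reads miR-218a-5p had 18954 reads and faced miR-218b, miR-299b-5p had 137, and miR-3065-5p had 44 opposite miR-338-3p with 453385. miR-191b had 39 and faced the hairpin of miR-191a-5p with 1019262. It was complementary to the other arm, miR-191a-3p, with 374 reads. Whether the authors' counting used the strand of a read is not given in the sources used here, and without strand the reads of complementary miRNAs cannot be told apart.

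**Figure D4:**
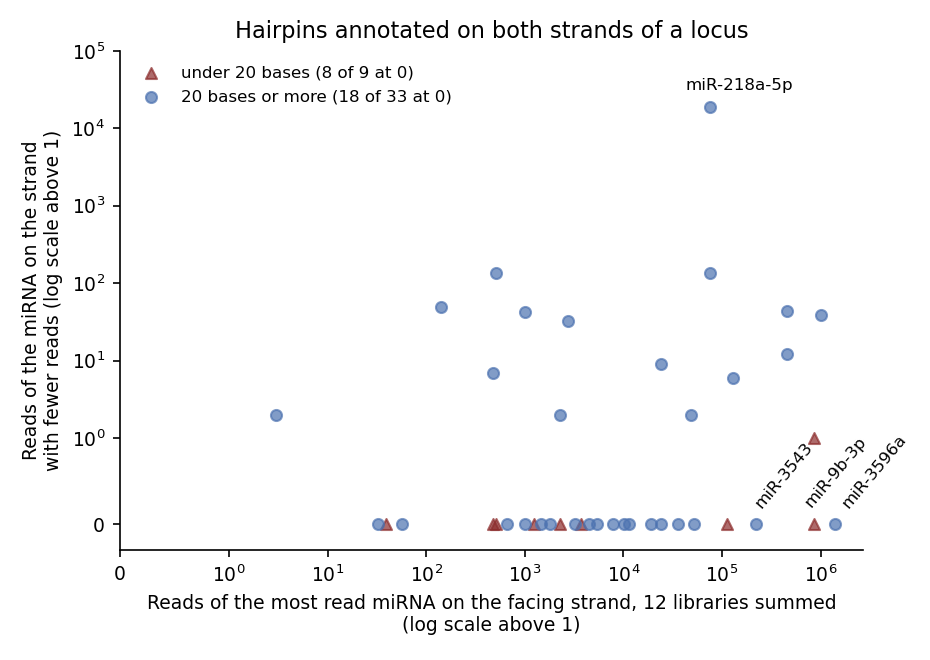
Reads of each mature miRNA on the less read strand of a two-strand locus (vertical axis) against reads of the most read miRNA facing it (horizontal axis), both summed over 12 libraries on axes that are logarithmic above 1. Triangles are miRNAs under 20 bases and circles those of 20 bases or more; the points along the bottom, with miR-3596a at the far right, had no read.

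The minus strand of the Dlk1-Dio3 locus held one of the 3 genomic clusters with at least 3 wholly silent precursors. At chr6:134559353-134579554 all 5 precursors were silent, those of miR-3595, miR-3576, miR-3592, miR-409b and miR-3578. The most read miRNAs of the facing hairpins were, in this order, miR-376a-3p, miR-539-5p, miR-382-5p, miR-409a-3p and miR-369-3p. miR-3592 and miR-3578 were themselves the reverse complements of the other arms, miR-382-3p and miR-369-5p. The plus strand of the locus is known as one of the richest sources of miRNA in the brain. Of 89 listed miRNAs named in the Dlk1-Dio3 list 72 were retained and 4 were silent, namely miR-381-3p, miR-770-3p, miR-299b-3p and miR-409b, the first 3 of them under 20 bases.

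Of the 66 listed miRNAs numbered from 3500 to just below 3600, a series named in rat, 38 were silent (57.6%) and 5 were retained. Of these 38 silent miRNAs 19 lay on the less read strand of a two-strand locus. Among the numbers below 200, 29 of 261 were silent (11.1%). Besides miR-3596, the name families with at least 3 silent members were miR-196, miR-208 and miR-466.

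Tissue-specific clusters made up the next groups. The largest was a stretch of the X chromosome, chrX:150444098-150488232 (44.1 kb), whose miRNAs are known from testis. Of its 26 listed miRNAs 19 were silent, all of them of 20 bases or more, and 7 of its 14 precursors were wholly silent. The silent ones included both arms of miR-465, miR-741, miR-742, miR-880, miR-883, miR-3551 and miR-3580, and miR-743a-5p, miR-743b-5p, miR-871-5p, miR-463-3p and miR-471-3p. The cluster at its far end, chrX:150462896-150488242, held 10 precursors, of which 5 were wholly silent.

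The other 7 miRNAs of the stretch had 36 reads in all, at most 10 for any of them (miR-743b-3p). Of the 36 reads 29 came from ethanol rat 16, with 8 of miR-743b-3p, 7 of miR-881-3p, 5 each of miR-463-5p and miR-871-3p, 3 of miR-471-5p and 1 of miR-743a-3p, and no other library had more than 2. Without that rat 22 of the 26 miRNAs would have been silent and 7 reads would remain. On the list of X-linked testis miRNAs, which extends past the stretch and holds 29 miRNAs, 19 were silent, 10 had few reads and none was retained.

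**Figure D5:**
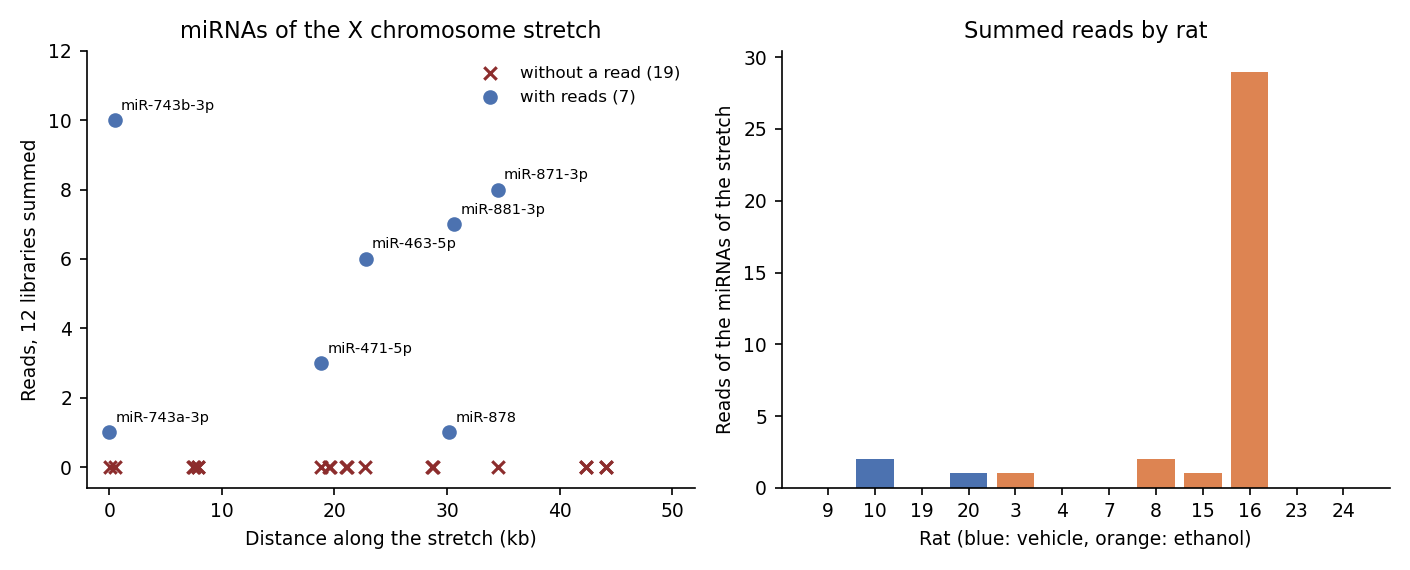
Left, summed reads over 12 libraries (vertical axis) of the 26 miRNAs of the X chromosome stretch by distance from its start in kb (horizontal axis), with crosses for the 19 without a read. Right, their summed reads in each rat, 29 in ethanol rat 16 and at most 2 in any other.

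The miR-290 cluster, known from embryonic stem cells, lies at chr1:74877973-74880135. Of its 10 listed miRNAs 7 were silent (miR-290, miR-291a-5p, miR-291b, miR-292-3p, miR-292-5p, miR-294 and miR-295-5p), and 5 of its 7 precursors were wholly silent. The rest had 24 reads in all, led by miR-291a-3p with 12. By library the 11 listed miRNAs of the stem cell list had 0, 3, 7 and 0 reads in vehicle rats 9, 10, 19 and 20 and 11 reads in ethanol rat 15, with 0 to 3 in the other ethanol rats.

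For heart, 3 of 6 listed miRNAs were silent. miR-208a-3p, at chr15:32395568-32395585, and miR-208b-3p, at chr15:32421648-32421665, come from introns of the cardiac myosin genes Myh6 and Myh7, and both have 18 bases. miR-208b-5p was silent too and miR-208a-5p had 7 reads, while miR-499-5p, also on the heart list, had 1831. For skeletal muscle miR-1-5p, miR-133b-5p, miR-133c and miR-206-5p were silent of 10 listed, and miR-133b-3p had 11791 reads. Hox-linked miR-196a-3p, miR-196b-3p and miR-196c-3p were silent, and no listed miR-196 had more than 3 reads, against 117073 for miR-10a-5p on the same list.

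In several other lists the silent miRNA was the less read arm of a hairpin, namely miR-375-5p of the pancreatic islet miRNA miR-375 (1 of 8 silent), miR-122-3p of liver (1 of 2), miR-150-3p among blood miRNAs (1 of 10) and miR-96-3p of the sensory miR-183 cluster (1 of 5). Of the epithelial list miR-200b-5p, miR-200c-5p, miR-203a-5p and miR-203b-5p were silent of 14. Of the 8 miRNAs listed under the Sfmbt2 cluster 4 were silent, of which RefSeq places miR-466b-3p, miR-466c-3p and miR-466d on chromosome 17 and miR-297 on chromosome 10. On the gut and kidney list 0 of 4 were silent. On the brain list 4 of 40 were silent, namely miR-128-2-5p, miR-129-5p, miR-129-1-3p and miR-344a-5p, and 35 were retained.

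Counting each miRNA once, 41 of the 152 were short, 18 more faced a better read miRNA, 21 more lay in the X chromosome stretch or, for both arms of miR-509, 1289 kb from its start and 6 more in the miR-290 cluster. A further 26 had a read opposite arm, among them miR-211-3p, miR-326-5p, miR-375-5p, miR-155-3p, miR-301b-5p, miR-449a-3p and miR-363-5p. For 10 both arms were silent or the partner was short and silent, namely both arms of miR-1199, miR-20b, miR-3557 and miR-675, which is cut from the imprinted H19 transcript, and miR-202-3p and miR-208b-5p. For 16 a single arm was listed, as for miR-126b, miR-568, miR-628, miR-678, miR-711 and miR-759. The last 14, set apart only because RefSeq gave no mature sequence, were miR-1297, miR-150-3p, miR-196a-3p, miR-201-3p, miR-206-5p, miR-23a-5p, miR-320-5p, miR-328a-5p, miR-3568, miR-3586-5p, miR-6323, miR-761, miR-875 and miR-881-5p. Some of these share a trait of the groups above. The opposite arm of miR-328a-5p had 45520 reads and that of miR-150-3p 19555, and miR-201-3p and miR-881-5p are on the X-linked testis list.

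By position 32 of the 138 (23.2%) lay on the X chromosome, against 15.3% of the listed miRNAs with a sequence. Of these 32, 22 lay in the 1289 kb from the start of the X chromosome stretch to miR-509. That region held 33 listed miRNAs, so the X share is not a trait separate from the stretch described above. The share within 10 kb of another precursor on the same strand was 42.8%, or 59 miRNAs, against 44.2% of those listed. On the X chromosome the cluster of miR-363, miR-92a-2, miR-19b-2, miR-20b and a second copy of miR-17 had 5 of 10 listed miRNAs silent, although miR-92a-3p, also made elsewhere, had 21788 reads.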

How the data were processed

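Small RNA was sequenced from the hippocampus of 12 rats, of which 4 received vehicle and 8 ethanol by their labels; the study states 8 per group, and the other rats were not analysed here. Per the study's methods, 1 µg of RNA was made into libraries, cut from a gel at 20 to 30 nt and read for 37 cycles. The submitters' processing notes name cutadapt, Partek and rn5, with no versions. The deposited values are expected counts per mature miRNA that the authors' software estimated, without scaling, and they were rounded to whole counts (0.5 and above upwards). Coordinates and sequences are from RefSeq GRCr8, a build other than the authors'. Opposite arms were paired by RefSeq hairpin and by name. Edit distances were taken with edlib 1.3.9.post1. edgeR 4.0.16 (TMM, quasi-likelihood test, Benjamini-Hochberg adjustment) compared the 420 retained miRNAs, without a covariate; the script was tested on simulated data. DESeq2 1.42.0 and limma 3.58.1 served as alternatives, with R 4.3.3, numpy and scipy. The labels name separate rats, so p-values reflect the spread between animals. The study kept its rats in pairs and limited the pups of a litter in each condition. Cage and litter were not part of the tests, which treat the rats as independent. Depth was 1960704 to 4917928 reads a library.

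The members and the tissue lists were chosen with earlier results of these data known. Named were members on the tissue lists, members with a fraction of a read, the 10 with the most abundant opposite arm, the 3 opposite arms with the smallest unadjusted p, the 10 with the most abundant nearest read miRNA, families and clusters with at least 3 silent members, and the 5 largest totals confined to 1 library; numbered copies, short miRNAs and antisense pairs were singled out after their values were seen. Alternatives changed the definition of no read, the libraries, seed, edit and gap limits, normalization, filter and test.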

Additional observations from a re-analysis of the deposited data

Results flagged for a closer look

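Of 38 groups of samples checked for a value far from the rest (Dixon's ratio), 8 held one; chance gives about 1 in 20. Reads of the X-linked testis list were 33 in ethanol rat 16 and 2 to 7 in the other ethanol rats. In the same rat reads of the muscle list were 4883, against 309 to 720, and miR-133b-3p stood at 732 TMM-scaled CPM, against 46.7 to 137. In the vehicle group miR-133b-3p was at 56.6 CPM in rat 10 and at 605 to 691 CPM in the others. Reads of the embryonic stem cell list were 11 in ethanol rat 15 and 0 to 3 in the other ethanol rats. In ethanol rat 3 miR-150-5p was at 663 CPM, against 491.5 to 567.9, and miR-129-2-3p at 645 CPM, against 376 to 485. In vehicle rat 19 miR-92a-3p was at 649 CPM, against 459 to 484. The silent miRNAs themselves cannot be flagged, as all their rounded values are 0.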

How the results depend on the processing

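The number of silent miRNAs stayed within 1.5 times of 152 under every definition of no read and every choice of libraries tried, and was 152 to 156 without each rat in turn. The short silent miRNAs numbered 41 or 42 and the silent miRNAs of two-strand loci 31 or 32 without each rat; these alternatives were chosen after seeing the data. The pooled limit rose to 0.205 CPM over the vehicle and 0.136 CPM over the ethanol libraries. Opposite arms counted as detected fell from 65 to 33 when only retained ones were counted. Seeds shared with a read miRNA rose from 19 to 36 with bases 2 to 7 and fell to 12 with retained mates. Close sequences numbered 1 at 1 edit and 5 at 3 edits.

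DESeq2's Wald test called miR-133b-3p, 1 of the retained miRNAs (-2.32 on the log2 scale with an adjusted p of 0.0397), and edgeR called 0 to 3 without each rat in turn, the 3 without ethanol rat 16 being miR-1b and both miR-133b-3p and miR-133a-3p; the cause was not tested. Without each rat miR-133b-3p ranged from -2.62 to -1.42. Of 221 comparisons of the 13 named opposite arms 192 kept direction and call and 27 turned direction, all uncalled. With edgeR's filterByExpr, added after seeing the data, miR-103-3p was 0.0031, miR-328a-3p 0.013 and miR-664-3p 0.0056. By limma-trend miR-211-5p was -0.14, and miR-328a-3p was 0.0039 with no filter and 0.00028 by DESeq2. Without each rat the range was -0.12 to 0.025 for miR-128-3p, -0.13 to 0.18 for miR-211-5p, -0.063 to 0.031 for miR-103-3p, -0.061 to 0.077 for miR-328a-3p, -0.092 to 0.094 for miR-664-3p and -0.17 to 0.033 for miR-129-2-3p. No paired analysis was possible because vehicle and ethanol rats share no replicate number.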
